A study of Mus musculus with 2 samples.

Results

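The 10 genes described here, Flg, Casp14, Ivl, Sprr1a, Sprr1b, Sprr2h, Csta1, Krtdap, Sbsn and Tgm1, belong to cornification, the process by which a keratinocyte turns into a dead, barrier-forming scale of the skin surface. They were taken by name from the 32285 genes of the feature list, and all 10 were found. Their levels were followed in keratinocyte-like cells, split once by the summed keratins Krt6a, Krt6b and Krt16 and once by Krt1 plus Krt10, each at 100 unique molecular identifiers (UMIs, counted RNA molecules) per 10000 UMIs of the cell.

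The irradiated library came from male C57BL/6 mice aged 8 to 10 weeks, burned over 30% of the body surface on the back and with the left Achilles tendon cut, whose injury site then received 7 Gy once through a 2 cm collimator. The control library came from mice of the same strain, sex and age with the same injury and no radiation, and both sites were harvested 7 days after injury. Radiation was given to 10 mice an arm, either 1 or 3 days after the operation, and of these the series text names day 3 without making clear that it is the day of radiation. How many mice went into each library is not stated. With a single library on each side, treatment and library cannot be told apart, no test was possible, and each difference below describes these 2 libraries.

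In the outer layers of skin a keratinocyte first swaps its basal keratins for Krt1 and Krt10, then builds a protein shell under its membrane, the cornified envelope, while its nucleus is lost. Involucrin (Ivl) and the small proline-rich proteins (Sprr) are envelope precursors, and transglutaminase 1 (Tgm1) cross-links them. Filaggrin (Flg) bundles keratin filaments in the last living layer and is later broken down to moisture-holding amino acids, with caspase 14 (Casp14) among its proteases. Csta1 belongs to the stefin A family of cysteine protease inhibitors, and Krtdap and suprabasin (Sbsn) are secreted proteins of the differentiating layers. At a wound edge, keratinocytes switch on Krt6a, Krt6b and Krt16, the alarm keratins, and small proline-rich genes are known to be induced in injured epithelia.

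On the GRCm38 assembly, Flg (93273523 to 93293686, plus strand), Ivl (92570902 to 92573735, minus), Sprr1a (92483952 to 92485895, minus), Sprr1b (92436809 to 92438789, minus) and Sprr2h (92385685 to 92387324, plus) lie on chromosome 3, where they make up 5 of the 10 genes. All 10 are annotated as protein-coding. Casp14 is on chromosome 10 (78711991 to 78718294, minus), Csta1 on chromosome 16 (36119946 to 36131241, minus) and Tgm1 on chromosome 14 (55700009 to 55713926, minus). Krtdap (30787896 to 30791097, plus) and Sbsn (30751471 to 30756134, plus) are neighbours on chromosome 7. Reads of near-identical copies within the Sprr2, Lce1 and stefin A families could be split or lost in counting, so single values there are uncertain.

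The promoters are shown because members that differ in where they are expressed hold the same motifs close to the start site. In the 250 bases before the start, 7 of the 10 genes held the AP-1 motif TGANTCA, against 6.75% of 32851 mouse promoters of the same length. TATAAA was in 6 of the 10 against 12.4% of all, and CACCC, a motif of Klf factors, was in 8 of the 10 against 52% of all, each searched on both strands. A match describes these letters and does not show binding. The 120 bases before the start site are printed 5′ to 3′ for 5 genes with both of the first motifs in that stretch (RefSeq, GRCm38.p6). Matches to TGANTCA and TATAAA are in capitals. The gene spans above are from GENCODE, and the RefSeq start sites of Flg, Sprr1a, Sprr1b and Krtdap lie inside those spans. Distances are counted from the RefSeq start. In Sprr1a a CACCC match on the strand opposite to the printed one overlaps the printed AP-1 match.
Flg, chr3:93273426-93273545, plus strand: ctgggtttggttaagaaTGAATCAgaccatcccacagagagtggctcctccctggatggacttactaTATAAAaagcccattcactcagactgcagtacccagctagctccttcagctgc
Ivl, chr3:92573736-92573855, minus strand: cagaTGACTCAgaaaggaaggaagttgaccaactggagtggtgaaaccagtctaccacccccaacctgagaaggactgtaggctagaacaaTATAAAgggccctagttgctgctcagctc
Sprr1a, chr3:92485882-92486001, minus strand: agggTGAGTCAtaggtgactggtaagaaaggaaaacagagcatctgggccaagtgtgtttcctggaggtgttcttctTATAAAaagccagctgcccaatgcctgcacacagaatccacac
Sprr1b, chr3:92438780-92438899, minus strand: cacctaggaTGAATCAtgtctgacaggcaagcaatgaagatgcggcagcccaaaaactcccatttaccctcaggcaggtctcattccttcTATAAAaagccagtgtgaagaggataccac
Krtdap, chr7:30787785-30787904, plus strand: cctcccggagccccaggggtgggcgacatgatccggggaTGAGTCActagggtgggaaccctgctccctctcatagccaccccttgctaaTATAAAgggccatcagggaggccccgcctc
In the printed stretches the AP-1 match began 81 to 116 bases before the start (81 in Krtdap, 103 in Flg, 111 in Sprr1b, 116 in Ivl and in Sprr1a), and Sprr1a held another that began 146 bases before it. In Sprr2h and Sbsn the match began 198 and 119 bases before it. Casp14, Csta1 and Tgm1 held neither TGANTCA nor TATAAA in the stretch searched.

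The irradiated library held 8302 barcodes with 111753092 UMIs and the control library 11369 barcodes with 180080740 UMIs. After filtering, 7126 irradiated and 8744 control cells were kept, and 1256 (17.6%) and 2063 (23.6%) of them fell into 7 keratinocyte-like clusters with 11 to 14 of the 14 keratinocyte markers. Median depth was 25676 UMIs in irradiated and 20623 UMIs in control keratinocyte-like cells. The mitochondrial limit left out 6.13% of irradiated and 14.9% of control barcodes, automatic doublet calling marked 0.867% and 5%, and both libraries shared 32 barcodes. The depth, the filters and the doublet calls thus differed between the libraries, and their part in the differences below was not tested beyond the alternatives given at the end.

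Krt6-high cells made up 6.69% of irradiated keratinocyte-like cells (84 cells, exact 95% interval 5.37 to 8.21) and 17.7% of control ones (365 cells, 16.1 to 19.4). Krt1/10-high cells made up 16.2% (203 cells) in the irradiated and 27.2% (562 cells) in the control library. Crossing both splits gave 29 irradiated and 144 control cells high in both, 55 and 221 that were Krt6-high only, 174 and 418 that were Krt1/10-high only, and 998 and 1280 low in both. Few cells sat near a cut: between 80 and 125 UMIs per 10000 there were 35 irradiated and 96 control cells on the Krt6 sum, and 26 and 62 cells on Krt1 plus Krt10. Krt6-high cells were the deepest, with a median of 53269 UMIs in the irradiated and 34959 UMIs in the control library, against 24960 and 18937 UMIs in Krt6-low cells.

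Levels are given as CPM, the usual depth-scaled level, computed from UMIs summed over a group of cells. A difference is called higher or lower when it is at least 1.5-fold, the exact 95% interval of the ratio leaves out equality and both sides together hold at least 20 UMIs. These intervals hold counting error alone, without the variation from mouse to mouse or from cell to cell. A call is a rule of size, not a test.

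The splits sorted the genes differently. Ratios were larger on the Krt6 split for the small proline-rich members and Csta1. They were larger on the Krt1/10 split for Casp14, Flg, Ivl, Sbsn and Krtdap. Several genes were higher on both splits in both libraries, among them Sprr1b, Casp14 and Tgm1. In the irradiated library 8 of the 10 genes were called higher in Krt6-high than in Krt6-low cells (6.16% of 14317 genes were) and 1 was called lower (34.1% were). In the control library 7 were called higher (4.81% of 15003 genes) and 1 lower (37.2%). Krt1/10-high cells were called higher than Krt1/10-low cells for 9 genes in the irradiated library (9.58% of genes were) and for 8 in the control library (10.9% were), with none called lower in either (41.9% and 37% of genes were). The 9 include Sprr2h, whose ratio turned to -0.22 with a cut of 200 UMIs per 10000. The median log2 ratio of the 10 genes was 1.66 and 1.14 on the Krt6 split in the irradiated and control libraries, against -0.47 and -0.45 over all genes. On the Krt1/10 split it was 2.43 and 1.97, against -0.53 and -0.41 over all genes.

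**Figure D1:**
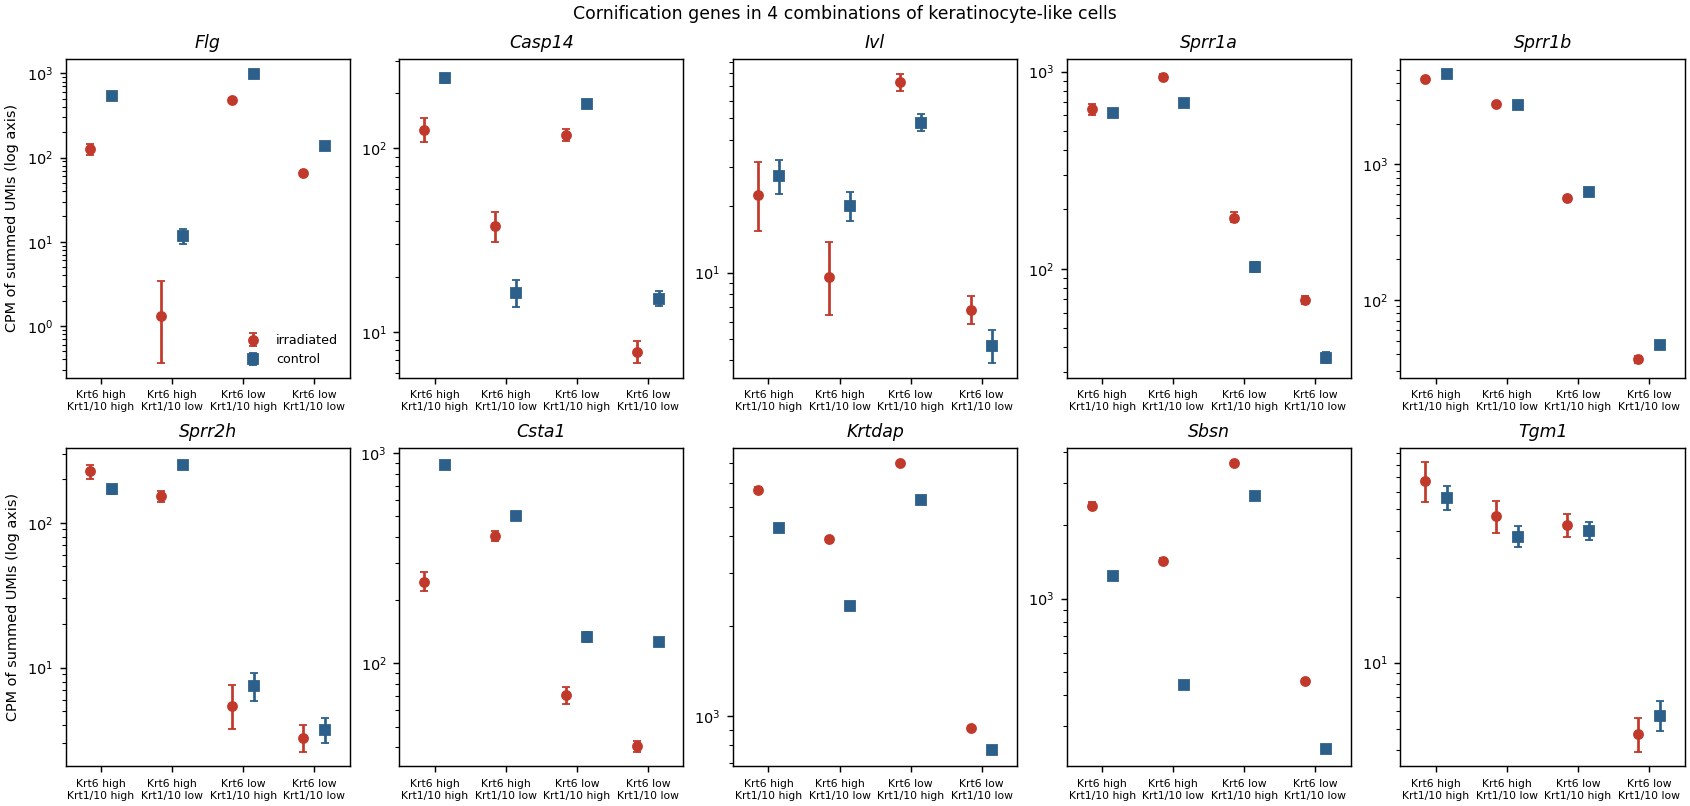
CPM of each gene (log axis) in the 4 combinations of the Krt6 and Krt1/10 splits, irradiated cells as circles left of control cells as squares, with exact 95% Poisson intervals for counting error. Sprr1b and Sprr2h are high in both Krt6-high columns of either library, whereas Flg is high in both Krt1/10-high columns and lowest in the Krt6-high Krt1/10-low cells (1.32 CPM irradiated, 11.6 CPM control).

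Sprr2h, a small proline-rich envelope precursor, was the most restricted to Krt6-high cells. It stood at 175 CPM in Krt6-high and 3.68 CPM in Krt6-low irradiated cells, and at 222 and 4.70 CPM in the same control groups. The log2 ratios were 5.58 (5.30 to 5.86) and 5.56 (5.34 to 5.78). All cells with 10 or more Sprr2h UMIs per 10000, 5 irradiated and 18 control, were Krt6-high.

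Sprr1b, the relative with the most UMIs here, measured 3265 CPM in Krt6-high and 138 CPM in Krt6-low irradiated cells, and 3428 and 206 CPM in the same control groups (log2 4.56 and 4.05). It was also raised on the Krt1/10 split, by log2 1.96 in the irradiated and 1.48 in the control library. Within Krt6-low cells, those high in Krt1/10 held 564 CPM in the irradiated and 627 CPM in the control library, and those low in it held 36.5 and 46.4 CPM. The lowest Sprr1b level was thus in the cells low in both splits, in either library.

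Sprr1a followed the Krt6 split with log2 ratios of 3.21 in the irradiated and 3.63 in the control library. Its levels were 847 CPM in Krt6-high and 91.5 CPM in Krt6-low irradiated cells, and 663 and 53.7 CPM in the control groups. It was not called on the Krt1/10 split within Krt6-high cells of either library (log2 -0.55 irradiated, -0.17 control).

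Ivl, the classic envelope precursor, did not follow the Krt6 split (log2 -0.51 irradiated, 0.45 control, neither called) but did follow Krt1/10. It measured 63.9 CPM in Krt1/10-high and 7.06 CPM in Krt1/10-low irradiated cells, and 41.6 and 8.15 CPM in the control groups, log2 3.18 (2.94 to 3.42) and 2.35 (2.15 to 2.55). Tgm1, the cross-linking enzyme, was higher on both splits. Its log2 ratio was 2.15 in the irradiated and 1.55 in the control library on Krt6, and 2.39 and 1.79 on Krt1/10, at levels no higher than 67.0 CPM in any of the 4 combinations.

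The summed level of Flg was lower in Krt6-high cells, at 41.1 CPM against 147 CPM in Krt6-low irradiated cells (log2 -1.83, -2.06 to -1.62) and at 203 CPM against 368 CPM in the control library (log2 -0.86, -0.92 to -0.80). The control call was lost with a higher cut, with thinned cells, with the wider gate on all barcodes and with each cell weighted alike. Counts of cells did not follow the summed level. Cells with 10 or more Flg UMIs per 10000 were 2 of 29 irradiated cells high in both splits and 0 of 55 Krt6-high only, against 10 of 174 Krt1/10-high only and 5 of 998 low in both. In the control library they were 23 of 144 and 1 of 221, against 47 of 418 and 14 of 1280. The share of control cells with any Flg UMI was 10.8% in the lowest and 22.6% in the 300 to 1000 bin of the Krt6 sum. That share was not corrected for depth, and Krt6-high control cells were deeper than Krt6-low ones (median 34959 against 18937 UMIs). On the Krt1/10 split Flg was higher by log2 2.84 and 2.96, with 421 CPM in Krt1/10-high and 58.9 CPM in Krt1/10-low irradiated cells and 843 and 108 CPM in control ones. Casp14 shared the second pattern, with log2 3.47 in the irradiated and 3.66 in the control library on Krt1/10, but not the first, since it was higher in Krt6-high cells by 1.18 and 0.73. Both of these last calls were lost with a cut of 50 UMIs per 10000 (0.55 and 0.45).

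Csta1, the stefin A inhibitor, measured 354 CPM in Krt6-high and 46.2 CPM in Krt6-low irradiated cells, and 641 and 128 CPM in control ones (log2 2.94 and 2.32). On Krt1/10 it was called only in the control library (0.77, against 0.40 in the irradiated one), where it was lost without the clusters with hair follicle markers (0.54), and that difference between the libraries was not tested. Krtdap and Sbsn were the most widely spread members, with a UMI in 71.7% and 90.8% of irradiated and 82.0% and 72.5% of control keratinocyte-like cells. In macrophage and monocyte-like cells, which are shallower (median 9717 UMIs irradiated, 7693 UMIs control), 360 (Krtdap) and 220 (Sbsn) of 2638 irradiated and 484 and 215 of 1962 control cells had one. Both followed Krt1/10 (Krtdap log2 2.48 and 2.14, Sbsn 2.61 and 2.95, irradiated and control). Along the Krt6 sum, irradiated Krtdap stood at 2291 CPM in the 0 to 10 bin and 4877 CPM in the 300 to 1000 bin. Control Krtdap stood at 2427 and 3744 CPM in these bins. Sbsn stood at 1151 and 2023 CPM in irradiated and at 1287 and 956 CPM in control cells. Both genes were lower in the 10 to 30 bin than in the 0 to 10 bin of either library.

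Holding one keratin sum fixed separated the genes further. Among Krt1/10-high cells, Krt6-high cells were called higher for 5 genes in the irradiated library (5.11% of genes were) and lower for 2 (26.6%), and in the control library higher for 4 (4.65%) and lower for 3 (23.3%). Ivl was among the lower ones, at 22.6 against 73.0 CPM in irradiated (log2 -1.69) and 27.3 against 47.9 CPM in control cells (-0.81), and so was Flg (-1.94 and -0.86). The control Ivl value turned positive with thinned cells and as a mean over cells.

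Among Krt1/10-low cells, Krt6-high cells were called higher for 8 genes in the irradiated library (8.02% of genes) and lower for 1 (30.7%), and for 8 and 1 in the control library (6.31% and 36.8%). Sprr1b stood at 2806 against 36.5 CPM in irradiated (log2 6.27) and 2754 against 46.4 CPM in control cells (5.89). Sprr2h differed by a similar amount (5.54 and 6.09). The lower gene was Flg, at 1.32 against 65.4 CPM and 11.6 against 136 CPM. The 1.32 CPM was close to the background level given below. The irradiated Flg value turned positive without the top 1% of cells.

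Among Krt6-high cells, Krt1/10-high cells were called higher for 5 genes in the irradiated library (4.35% of genes) and lower for 1 (28.8%), and for 7 and none in the control library (7.25% and 22.2%). Flg led both, at 126 against 1.32 CPM in irradiated and 538 against 11.6 CPM in control cells (log2 6.58 and 5.54). The irradiated 1.32 CPM was close to the Flg background in macrophage and monocyte-like cells given below, so the size of that ratio is uncertain. Among Krt6-low cells all 10 genes were called higher in irradiated Krt1/10-high cells (10.5% of genes, with 41.3% lower) and 9 in control ones (11.9%, with 37.9% lower). Csta1 was the control exception, at 134 against 126 CPM (0.09).

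**Figure D2:**
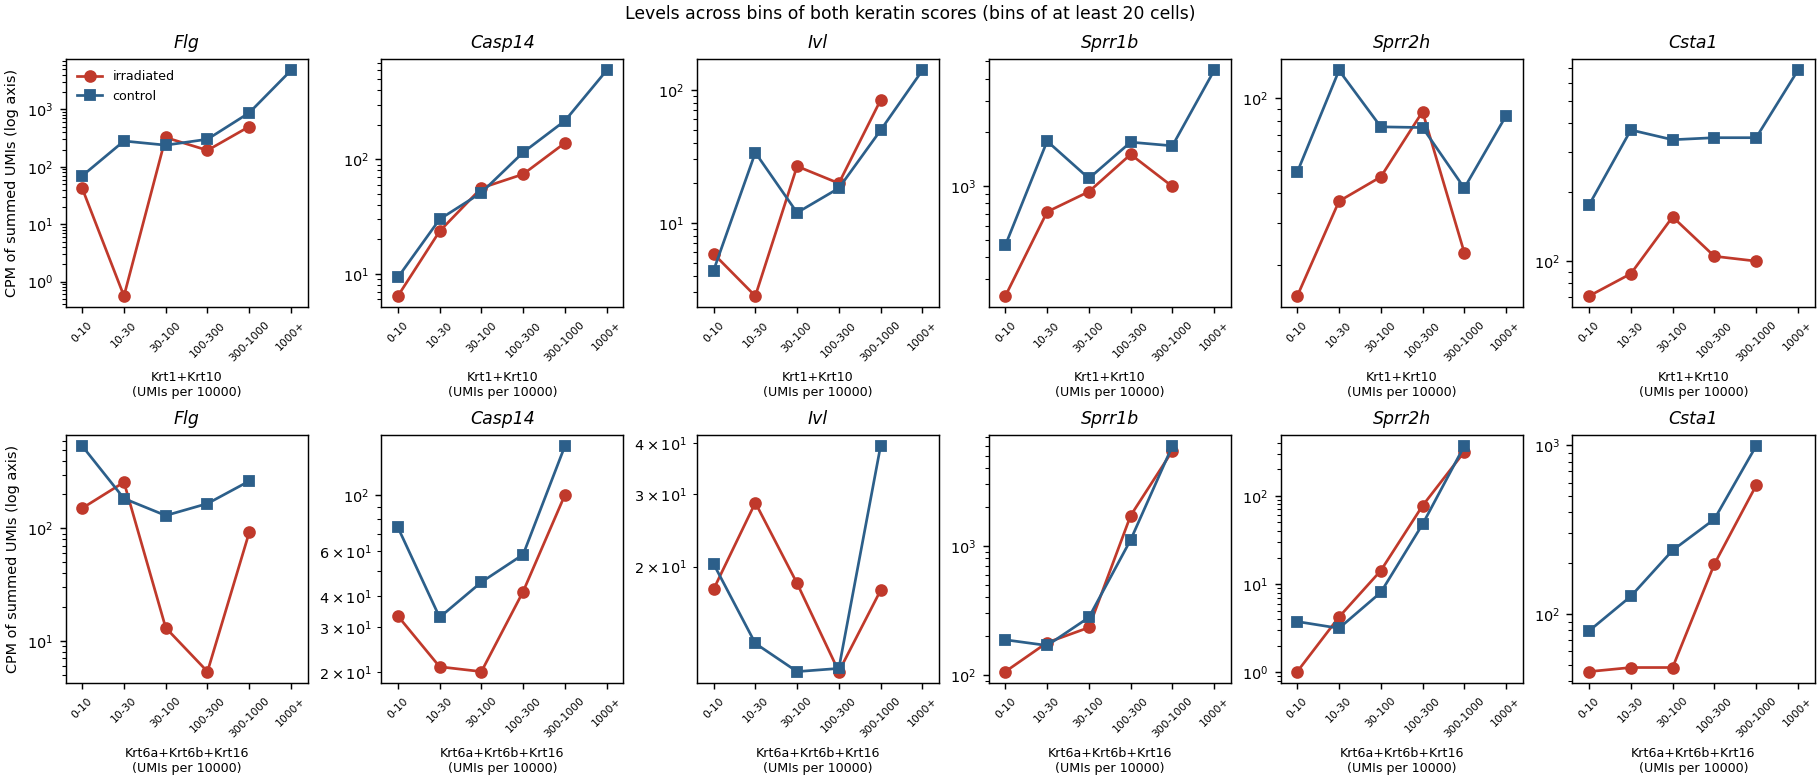
CPM (log axis) of 6 genes across bins of Krt1 plus Krt10 (upper row) and of the Krt6 sum (lower row), in UMIs per 10000 of each cell, for irradiated (circles) and control (squares) cells, with bins of fewer than 20 cells left out. Casp14 climbs at every step of Krt1 plus Krt10 in either library, and Sprr2h reaches 315 CPM in irradiated and 367 CPM in control cells in the 300 to 1000 bin of the Krt6 sum.

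Finer bins showed gradients as well as steps. Casp14 stood at 6.41, 23.6, 56.2, 74.2 and 139 CPM in irradiated cells over 5 rising bins of Krt1 plus Krt10, and at 9.32, 30.0, 51.2, 115 and 217 CPM in control cells. The 27 control cells at 1000 or more UMIs per 10000 reached 598 CPM Casp14 and 4803 CPM Flg. Only 6 irradiated cells lay in that bin, too few to set beside them. Sprr2h stood at 1.02, 4.24, 14.2, 77.2 and 315 CPM in irradiated cells over the rising bins of the Krt6 sum, and at 3.76, 3.16, 8.05, 47.6 and 367 CPM in control cells. In both libraries most of the climb of Sprr2h lay above the cut of 100.

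The Krt1/10-low cells also held the ends of differentiation. Of the cells with 10 or more Flg UMIs per 10000, 5 of 17 irradiated and 15 of 85 control cells were Krt1/10-low, and all but 1 of these 20 cells lay in cluster 16, which is led by Krt2, Krt10, Calm4, Krt1 and Lor. Their median loricrin (Lor, the main envelope protein) was 622 UMIs per 10000 in irradiated and 704 in control cells, against 73.2 and 20.8 in Flg-rich cells that were Krt1/10-high. Their median Krt1 plus Krt10 was 9.63 and 23.2 UMIs per 10000, against 786 and 747. The low side of the Krt1/10 split was therefore a mixture that included a few cells very rich in late envelope RNA. It also held 55 irradiated and 221 control Krt6-high cells. Its cells with 10 or more Krtdap UMIs per 10000 were 48 Krt6-high and 263 Krt6-low in the irradiated library. In the control library they were 200 and 262.

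The late cornified envelope genes of the Lce1 cluster, whose proteins join the envelope at its last stage, were found on the same side. All 14 measured Lce1 genes were called lower in Krt1/10-high than in Krt1/10-low cells of both libraries. Of all genes, 41.9% were in the irradiated and 37% in the control library. An example was Lce1m at 2.67 against 107 CPM (log2 -5.33) in the irradiated and 2.60 against 244 CPM (log2 -6.55) in the control library. The Lce1 genes were as scarce in Krt6-high cells, at 0.449 CPM or less in the irradiated library and at 1.92 CPM or less in the control library. No UMI of Lce1b was among the 4451611 UMIs of irradiated Krt6-high cells, against 60.4 CPM in Krt6-low ones.

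**Figure D3:**
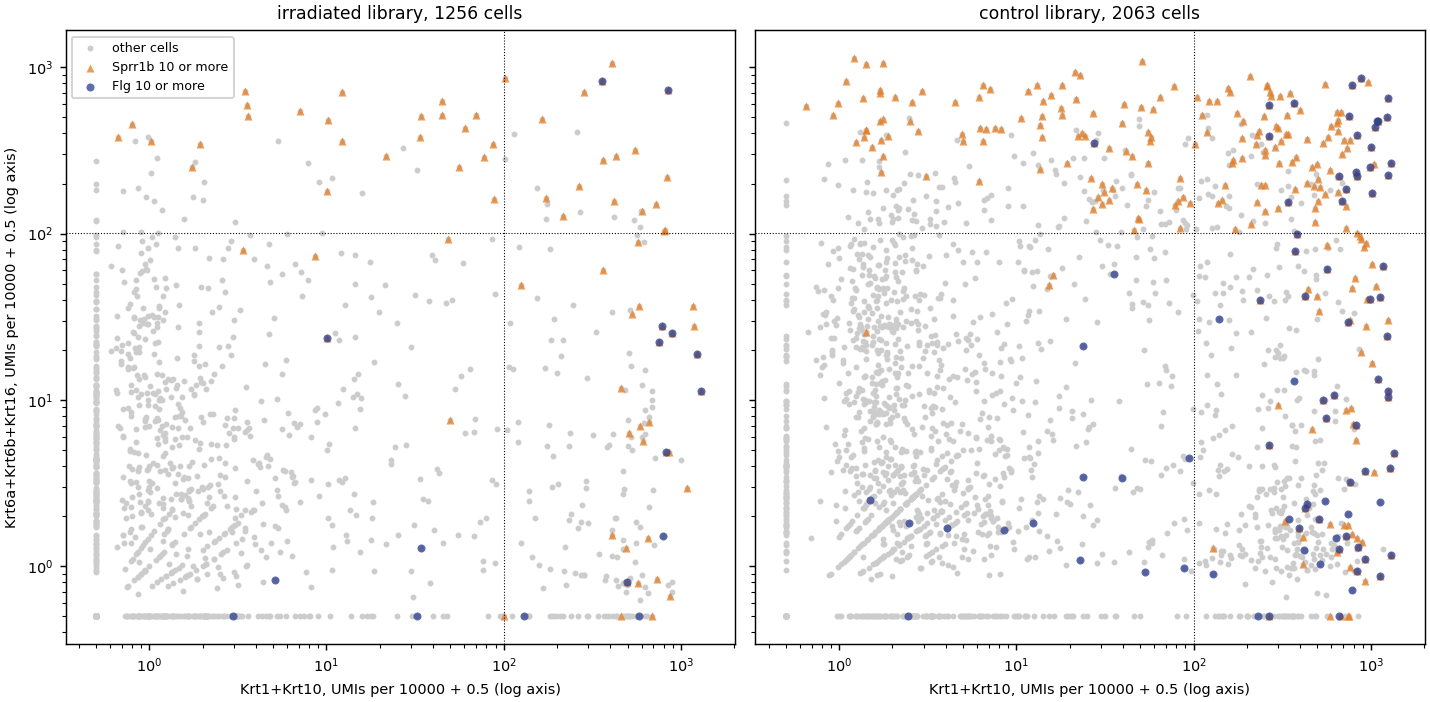
Each point is 1 keratinocyte-like cell, placed by Krt1 plus Krt10 and by Krt6a plus Krt6b plus Krt16 in UMIs per 10000 plus 0.5 (log axes, dotted lines at the cut of 100), irradiated left and control right. Blue circles mark the 17 irradiated and 85 control cells with 10 or more Flg UMIs per 10000 and orange triangles the 77 and 275 cells with as much Sprr1b, which fill the upper and right edges.

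The other envelope precursors (41 measured of 47 listed in control cells, 38 in irradiated cells) were divided by the Krt6 split. In irradiated cells 12 were called higher in Krt6-high cells (6.16% of all genes were) and 19 lower (34.1% were). The median log2 was -1.36 (-0.39 with genes at 0 UMIs set to a floor of 3 counts). In control cells 18 were higher (4.81% of all genes were) and 19 lower (37.2% were), with a median of 0.18. The higher ones included Sprr2i (log2 6.76 and 6.85), Sprr2b (6.23 and 6.66), Sprr2d (4.86 and 7.11) and Sprr2e (5.05 and 6.11), irradiated and control. The lower ones included the Lce1 genes and Flg2, a filaggrin relative, at 0 UMIs in irradiated and 0.461 CPM in control Krt6-high cells, against 37.3 and 80.2 CPM in Krt6-low ones. On Krt1/10, 17 were higher and 17 lower in irradiated cells (median 0.23), and 18 and 15 in control cells (median 0.10). Of all genes, 9.58% were higher and 41.9% lower on that split in irradiated cells, and 10.9% and 37% in control cells.

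Protease inhibitors leaned to the Krt6-high side, with 13 of 15 called higher in irradiated (6.16% of all genes were) and 12 of 15 in control cells (4.81% were). None was called lower (34.1% and 37.2% of all genes were). Csta3 (log2 4.50 and 3.49) and Stfa2 (3.46 and 3.24), both relatives of Csta1, were among the largest, with Serpinb3a (2.22 and 2.60) and the leukocyte protease inhibitor Slpi (1.99 and 3.26). The median of the list was 1.52 and 1.11. Of the barrier lipid genes, 17 of 18 were called higher on Krt1/10 in both libraries and none lower (median log2 2.01 and 2.11). Of all genes 9.58% and 10.9% were higher on that split and 41.9% and 37% lower. On the Krt6 split 10 of 18 were also called higher and 3 lower in irradiated cells, and 5 and 3 in control cells. Of all genes 6.16% and 4.81% were higher on the Krt6 split and 34.1% and 37.2% lower. Fabp5 (3.57 and 2.59) and Degs2 (2.64 and 4.09) were among the higher lipid genes there. Examples on the Krt1/10 split were Acer1, a ceramidase (134 against 6.99 CPM in irradiated and 126 against 7.85 CPM in control cells), Alox12b and Elovl4. Alox12b, a lipoxygenase of the ceramide barrier, was at log2 3.56 and 3.30 on that split, and Elovl4, which lengthens fatty acids, at 3.55 and 3.46.

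Of the crosslinking and filaggrin-processing genes, 7 of 11 measured in irradiated and 9 of 13 in control cells were higher on Krt1/10, with 1 lower in each. Kallikrein proteases of scale shedding led, with Klk5 at log2 4.47 and 4.52 and Klk8 at 3.59 and 3.86. Of the upper-layer junction genes, 8 of 12 in irradiated and 10 of 12 in control cells were higher and none was lower, led by the desmosomal genes Dsc1 (3.55 and 4.12) and Dsg1a (3.19 and 3.20). Of the regulators of differentiation, 8 and 10 of 19 were higher and 4 were lower in each library, where 9.58% and 10.9% of all genes were higher and 41.9% and 37% lower. Cebpa, a differentiation factor, was higher (2.17 and 1.96) and Sox9, a factor of the hair follicle, was lower (-2.39 and -1.10).

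The irradiated keratinocyte-like cells as a whole held less Flg, Casp14, Sprr1b, Sprr2h and Csta1 than control cells. These 5 of the 10 genes were called lower, against 7.08% of 16158 genes, and none was called higher, against 7.34%. The median log2 ratio of the 10 genes was -0.72, and that of all genes was -0.02. Csta1 measured 82.4 CPM in irradiated and 257 CPM in control cells (log2 -1.64, -1.70 to -1.59), Sprr2h 23.9 and 59.3 CPM (-1.31, -1.42 to -1.21), and Flg 134 and 327 CPM (-1.28, -1.33 to -1.24). Casp14 measured 33.4 CPM in irradiated and 68.9 CPM in control cells (-1.04), and Sprr1b 506 and 1017 CPM (-1.01).

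The remaining members were not called. Ivl held 18.9 CPM in irradiated and 18.1 CPM in control cells (log2 0.06, -0.08 to 0.20), Krtdap 2370 and 2270 CPM (0.06) and Sprr1a 180 and 207 CPM (-0.20). Tgm1 held 16.8 and 22.5 CPM (-0.43, -0.57 to -0.29), and Sbsn 1142 and 857 CPM (0.41, 0.40 to 0.43). These differences were under the 1.5-fold size, which does not show that the genes were alike in both groups of mice.

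The share of Krt6-high and Krt1/10-high cells moved with these values, being lower in the irradiated library on both splits. An alternative added after seeing the data weighted the 4 combinations alike in both libraries. By the 1.5-fold size alone, without an interval, 3 genes were lower and 1, Sbsn at log2 0.71, was higher. The share of all genes was not computed under this weighting. Csta1 was then at log2 -1.19, Flg at -1.10 and Casp14 at -0.62, whereas Sprr1b was at -0.08, Sprr2h at -0.28 and Sprr1a at 0.54. In unsorted tissue the summed level of a gene cannot tell fewer cells that express it from less RNA in each, which is why the groups are given apart.

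**Figure D4:**
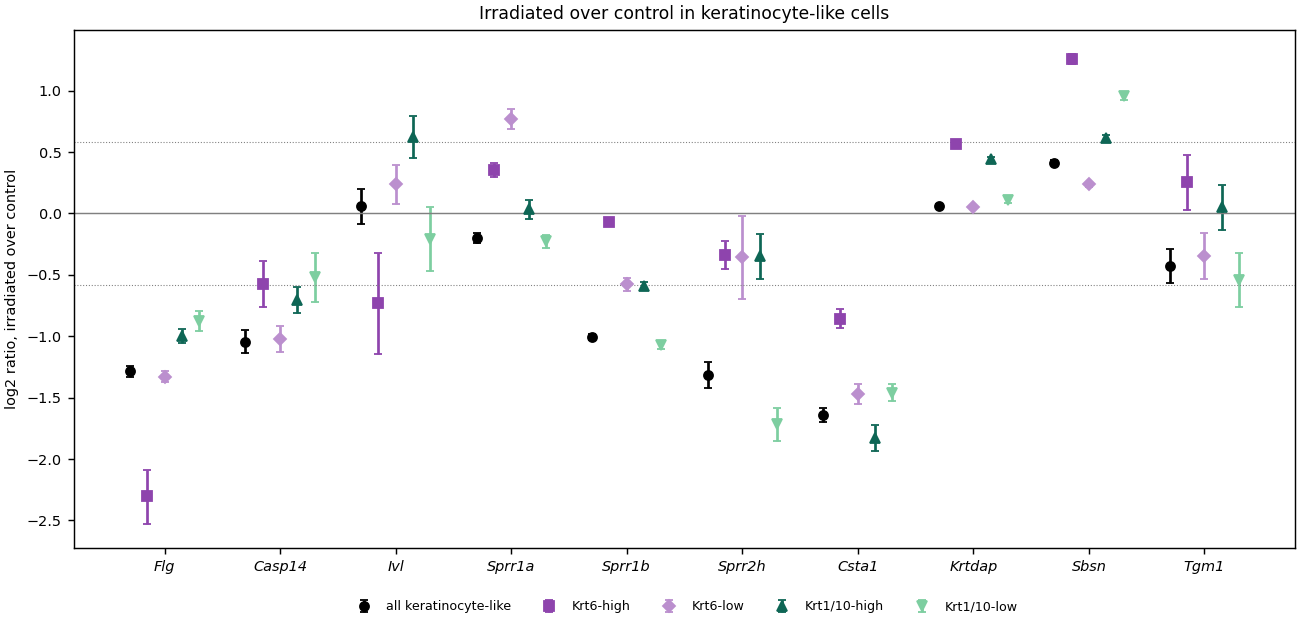
Log2 ratio of irradiated over control CPM for each gene in all keratinocyte-like cells and in the 4 single-split groups, with exact 95% intervals for counting error and dotted lines at 1.5-fold in either direction. Flg and Csta1 are below the lower line in all 5 groups, Sprr1b lies near 0 in Krt6-high cells (-0.07), and Sbsn reaches 1.26 there.

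Among Krt6-high cells the small proline-rich members were within 1.5-fold between the libraries. Sprr1b measured 3265 CPM in irradiated and 3428 CPM in control cells (log2 -0.07, -0.10 to -0.04), Sprr1a 847 and 663 CPM (0.35) and Sprr2h 175 and 222 CPM (-0.34), none of them called. Other genes of the family differed. Sprr2k (3.82 against 57.8 CPM, log2 -3.92), Sprr2i (-2.02), Sprr2d (-1.69) and Sprr2e (-1.34) were called lower in irradiated cells. Sprr2a1, Sprr2a2, Sprr2a3, Sprr2b and Sprr2f were not called. Called lower were 3 of the 10 genes (9.13% of 11958 genes), namely Flg at 41.1 against 203 CPM (-2.31), Csta1 at 354 against 641 CPM (-0.86) and Ivl at 13.7 against 22.7 CPM (-0.73). Called higher was 1 (5.56% of genes), Sbsn at 1745 against 730 CPM (1.26, 1.21 to 1.30). The Ivl value rested on few cells and turned to 0.20 without the top 1% of cells.

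Among Krt6-low cells 3 genes were called lower in irradiated cells (7.55% of 15821 genes) and 1 higher (6.09%). The lower ones were Csta1 at 46.2 against 128 CPM (log2 -1.47), Flg at 147 against 368 CPM (-1.33) and Casp14 at 29.1 against 59.1 CPM (-1.02). The higher one was Sprr1a at 91.5 against 53.7 CPM (0.77, 0.69 to 0.85), and the call was lost without the top 1% of cells (0.12) and with thinned cells (0.53). Sprr1b missed the size for a call by a narrow margin (138 against 206 CPM, -0.58).

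Among Krt1/10-high cells 4 genes were called lower in irradiated cells (11.6% of 12739 genes) and 2 higher (4.14%). Csta1 measured 102 CPM in irradiated and 363 CPM in control cells (log2 -1.83), Flg 421 and 843 CPM (interval -1.05 to -0.94), Casp14 120 and 195 CPM (-0.70) and Sprr1b 1228 and 1850 CPM (-0.59). The higher ones, Ivl at 63.9 against 41.6 CPM (0.62) and Sbsn at 3385 against 2205 CPM (0.62), sat just past the size for a call, and Ivl lost its call in 5 alternatives (0.23 to 0.53) and Sbsn in 4 (0.51 to 0.58). The Sprr1b call was lost in 3 (-0.58 to -0.52). The Flg value was -0.09 with each cell thinned to 2000 UMIs and -0.23 as a mean over cells, and the call was lost in both. Flg and Ivl, both late genes of the Krt1/10-high cells, thus had ratios of opposite sign in their summed levels over this group. Neither call was kept in every alternative.

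Among Krt1/10-low cells 4 genes were called lower (7.35% of 15607 genes), Sprr2h at 18.3 against 60.1 CPM (log2 -1.72), Csta1 at 77.2 against 212 CPM (-1.46), Sprr1b at 316 against 664 CPM (-1.07) and Flg at 58.9 against 108 CPM (-0.87), a call lost with a cut of 200 (-0.57). Sbsn was called higher (7.74% of genes were) at 555 against 286 CPM (0.96). Krt6-high cells were fewer on this side too, 55 of 1053 irradiated and 221 of 1501 control cells. Within its Krt6-low cells Sprr1b was at 36.5 CPM in irradiated and 46.4 CPM in control cells, and Sprr2h at 3.26 and 3.68 CPM, and neither was called.

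In the 4 combinations, irradiated cells were called lower for 3 genes in cells high in both (14.1% of genes), 3 in Krt6-high only (8.21%), 2 in Krt1/10-high only (11.1%) and 3 in cells low in both (8.24%). They were called higher for 1 (4.25%), 3 (7.15%), 2 (3.56%) and 2 (6.48%) in the same order. Flg was lower in irradiated cells each time (log2 -2.09 in cells high in both, -3.14 in Krt6-high only, -1.01 in Krt1/10-high only and -1.06 in cells low in both). Among Krt6-high cells low in Krt1/10 that ratio rested on 4 UMIs in irradiated and 96 UMIs in control cells. Csta1 was called lower in 3 of the 4 and stood at -0.32, not called, in the Krt6-high only cells. The Flg call in Krt1/10-high only cells was lost with thinned cells and as a mean over cells (-0.14), and that in Krt6-high only cells without the top 1% of cells (-1.42). Sbsn was higher in 3 of the 4 (0.96, 1.71 and 0.92) and stood at 0.45, not called, in the Krt1/10-high only cells. Sprr1b was called in none of the 4, with ratios of -0.12, 0.03, -0.15 and -0.35 in the same order.

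Few cells carried most of the Flg. Cells with 10 or more Flg UMIs per 10000 were 17 of 1256 irradiated (1.35%, exact 95% interval 0.79 to 2.16) and 85 of 2063 control cells (4.12%, 3.30 to 5.07), and they held 93.9% and 96.5% of the Flg UMIs. Among these cells the median Flg level was higher in the irradiated library, at 78.7 UMIs per 10000, than in the control library, at 41.9. The top 10 cells alone held 83.9% of irradiated and 37.7% of control Flg UMIs, and without the top 1% of cells the ratio over all keratinocyte-like cells was -3.62. The irradiated Flg levels therefore rest on a handful of cells.

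The same held in part for other members. Csta1-rich cells by the same cut were 14 irradiated (1.11%) and 117 control (5.67%), and Sprr1b-rich cells were 77 (6.13%) and 275 (13.3%). Sbsn-rich cells were 299 (23.8%) in the irradiated and 357 (17.3%) in the control library, with 114 and 54 of them low on both splits. All 4 irradiated and 29 of 30 control Casp14-rich cells were also Flg-rich, whereas 23.5% and 34.1% of Flg-rich cells were Casp14-rich. Flg-rich cells were nearly all rich in Krtdap (100% and 96.5%) and Sbsn (100% and 97.6%), and 58.8% and 68.2% were rich in Sprr1b.

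By cluster, cluster 16 held most Flg, at 872 CPM in irradiated and 2135 CPM in control cells (log2 -1.29), with Casp14 at 157 and 351 CPM (-1.16), Sprr2h at 17.6 and 60.5 CPM (-1.78) and Csta1 at 185 and 369 CPM. Cluster 8, led by Krt6b, Krt16 and Krt6a, held Sprr2h at 130 CPM in both libraries (log2 0.00, -0.12 to 0.12) and Sprr1b at 2194 and 1957 CPM (0.17). The cluster had 123 irradiated and 571 control cells, of which 52.0% and 53.4% were Krt6-high. Cluster 22, led by Cst6 and Krt79 and with 2 hair follicle or sebaceous markers among its top 10 genes, held Sprr1a at 762 and 604 CPM and Sbsn at 2613 and 1827 CPM, with Csta1 at 7.19 and 9.34 CPM. The members and the keratins were left out of the genes used for clustering.

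Across clusters the members' profiles followed the splits only in part. Over 14 points (7 clusters in each of 2 libraries, which share library and depth), the correlation of log2 CPM was 0.90 between Sprr1b and Sprr2h, 0.90 between Flg and Casp14, 0.87 between Sprr2h and Csta1, and 0.21 between Ivl and Sprr2h. The highest value was 0.94, between Sprr1a and Tgm1. Sprr1a was closer to Sbsn (0.83), Krtdap (0.82) and Casp14 (0.81) than to Sprr2h (0.55) and Csta1 (0.45), and Sprr1b was at 0.82 with both Casp14 and Krtdap. Within Krt1/10-high cells the correlation between Flg and Ivl was 0.80 over 203 irradiated cells and 0.69 over 562 control cells, and that between Flg and Krtdap was 0.25 and 0.30. Among 11639 other genes, the cluster profile most like Flg besides an unnamed Rik transcript was that of Slc28a3 (r = 0.994), a nucleoside transporter, followed by the keratin Krt78 (0.987). Fut2 (0.980) was closest to Casp14, Klk5 (0.988) to Ivl, Nectin4 (0.990) to Sprr1a, Rbp2 (0.968) to Sprr1b, Gjb6 (0.970) and then Krt6b (0.962) to Sprr2h, and Twf1 (0.958) to Csta1. Slc10a6 (0.988) was closest to Tgm1, Ptgs1 (0.981) to Krtdap after another Rik transcript, and Tmbim4 (0.960) to Sbsn.

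The other cornification genes differed between the libraries by list, against 7.34% of all genes higher and 7.08% lower. Of 41 measured envelope precursors 18 were called lower in irradiated keratinocyte-like cells and 2 higher, with a median log2 of -0.39 against -0.02 over all genes. Among the lower ones were Sprr2k at 1.21 against 15.6 CPM (-3.68), Lce3e at 0.290 against 2.88 CPM (-3.31) and Sprr2i at 2.03 against 16.9 CPM (-3.06). Cornulin (Crnn) had 2 UMIs in irradiated and 54 in control cells (-4.31, -7.39 to -2.38). The 2 higher ones, named after their values were seen, were Lce1j with 756 against 237 UMIs (log2 2.12) and Lce1k with 539 against 352 UMIs (1.06).

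Protease inhibitors had 5 of 15 lower and 2 higher. Csta2 was at 5.44 against 19.8 CPM (log2 -1.86) and Csta3 at 15.3 against 33.1 CPM (-1.12), both relatives of Csta1, and Serpinb12 at 71.9 against 147 CPM (-1.03), whereas Cst6, cystatin M/E, was at 1297 against 657 CPM (0.98). In Krt6-high cells Cst6 stood at 2867 CPM in irradiated and 564 CPM in control cells (2.35). Of the filaggrin-processing and crosslinking genes 4 of 13 were lower and 1 was higher, with Asprv1, a filaggrin protease, at 114 against 222 CPM (-0.97) and Tgm5 at 31.8 against 17.6 CPM (0.85).

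The remaining lists had few calls, to be read against the same shares of all genes (7.34% higher and 7.08% lower). Barrier lipid genes had 3 of 18 lower and none higher, with the fatty acid binding protein Fabp5 at 7014 against 17553 CPM (log2 -1.32). Junction genes had 2 of 12 higher and none lower, Ocln, a tight junction protein, with 1601 against 1032 UMIs (1.08) and Cldn4 at 28.2 against 16.2 CPM (0.80). Of 19 regulators 2 were higher and none lower, Hopx at 130 against 75.4 CPM (0.79) and Sox9 at 245 against 155 CPM (0.67). The alarm keratins Krt6b (845 against 2246 CPM, -1.41) and Krt16 (1967 against 4285 CPM, -1.12) were among 4 of 12 keratins called lower, and 1, Krt15, was higher (0.74).

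**Figure D5:**
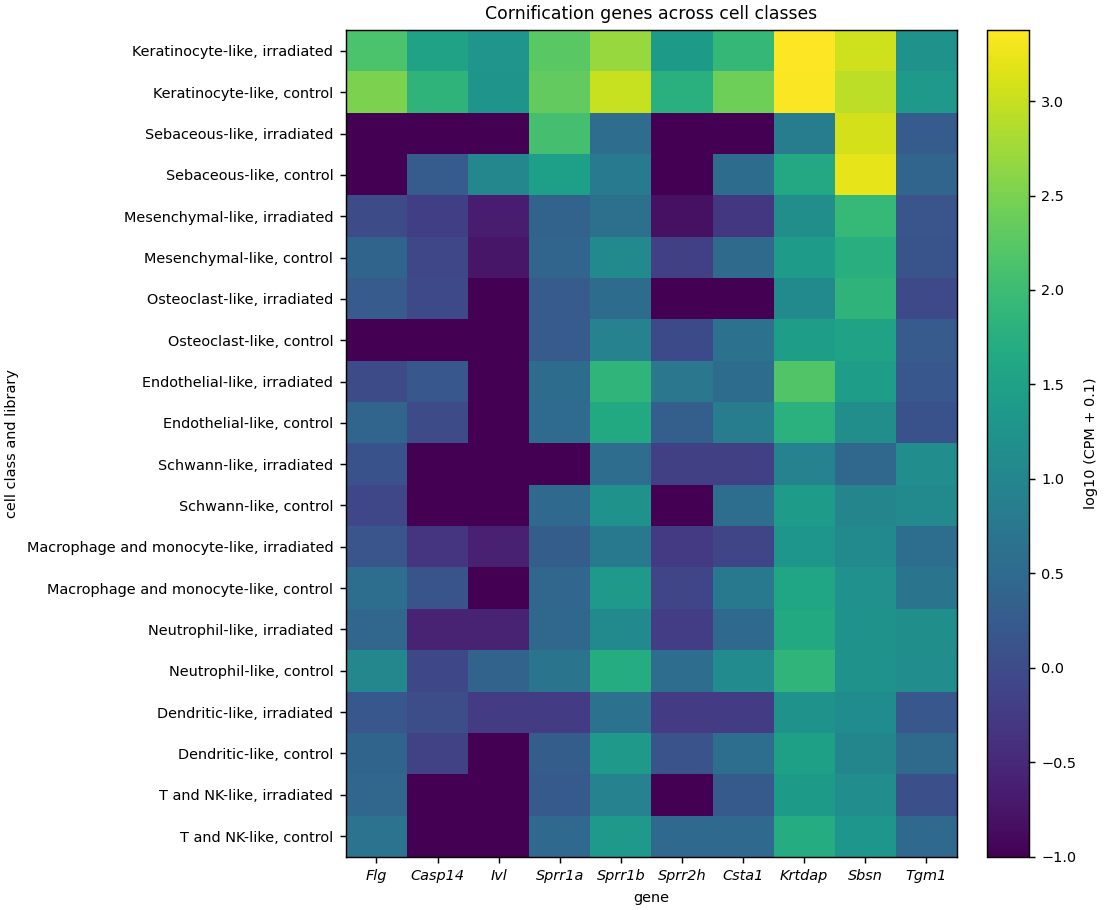
Log10 of CPM plus 0.1 for the 10 genes (columns) in the named cell classes of each library (rows, irradiated above control). The keratinocyte-like rows are the brightest for every gene except Sbsn, which is higher in the sebaceous-like rows (1241 CPM irradiated, 1650 CPM control), more so in the control library.

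Other cell classes gave the background for these levels. In macrophage and monocyte-like cells, which should lack these genes, Flg was at 1.33 CPM in the irradiated and 3.64 CPM in the control library, Csta1 at 0.721 and 5.77 CPM, Sprr1b at 5.77 and 23.3 CPM and Krtdap at 20.1 and 38.8 CPM. A Flg UMI was seen in 5.25% of irradiated and 12.6% of control keratinocyte-like cells (median 25676 and 20623 UMIs), against 1.21% and 3.01% of macrophage and monocyte-like cells (median 9717 and 7693 UMIs). With cells thinned to 2000 UMIs these shares were 2.27% and 5.55% in keratinocyte-like cells, against 0.318% and 0.857%. Flg in clusters 9, 13, 15 and 19, at 0.169 to 3.65 CPM, was close to this background. So was irradiated Flg in cluster 8 (1.21 CPM, 7 UMIs) and cluster 22 (1.03 CPM, 2 UMIs). Control Flg stood at 12.1 and 40.2 CPM in these clusters.

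Sbsn and Tgm1 were not at a like low level in all other classes. Mesenchymal-like cells had 5.76 Sbsn UMIs for each Krtdap UMI in the irradiated and 2.16 in the control library, against 0.604 and 0.419 in macrophage and monocyte-like cells. Their Sbsn level was 83.9 CPM in irradiated and 55.2 CPM in control cells. Sebaceous-like cells, 19 irradiated and 40 control, had 1241 and 1650 CPM Sbsn. Tgm1 was at 15.2 CPM in irradiated and 13.8 CPM in control neutrophil-like cells and at 14.0 and 12.1 CPM in Schwann-like cells, close to the 16.8 and 22.5 CPM of keratinocyte-like cells.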

How the data were processed

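The authors deposited raw UMI counts per gene and barcode from 10x Genomics 3′ v3 libraries of unsorted cells, digested with collagenase and dispase at a viability above 85% per the labels. Counts were made with Cell Ranger 5.0.1 per the file headers, against mm10 per the submitters' processing notes, with no normalization. Further filters by the authors are not given in the sources used here, and strand and multimapping settings are not given either. There was 1 library per group.

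Cells were kept with at least 500 genes, 1000 UMIs and at most 10% mitochondrial UMIs, and doublets were left out with Scrublet in scanpy 1.11.5 (Python 3.11.15). Its automatic thresholds differed, at 0.341 for the irradiated and 0.245 for the control library, so an equal threshold was an alternative. Both libraries were clustered together on 2000 variable genes without the members and keratins (30 components, 15 neighbours, leidenalg 0.10.2, resolution 1.0, seed 0), and clusters were named from marker lists. Cluster 20, with keratinocyte and collagen genes, stayed unnamed and was left out.

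UMIs were summed over cells of a group and given as CPM. Ratios carry exact conditional Poisson intervals and shares exact Clopper-Pearson intervals, both at 95% and for counting error only (scipy 1.17.1). No p-values were computed. Genes named from each pathway list are among the up to 4 with the largest called ratio in a comparison or, for likeness, the closest profiles by Pearson's r of log2(CPM + 10). Examples on the splits were taken from the called genes with large ratios in both libraries, after their values were seen. The calculation was tested on simulated Poisson counts, the model its intervals assume, so that test does not cover counts concentrated in few cells. The members and lists were chosen with earlier results of these data known.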

Additional observations from a re-analysis of the deposited data

Results flagged for a closer look

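Some groups under the same contrast had called ratios of opposite sign. None of these differences was tested, since there was 1 library per group. Casp14 was higher in irradiated than in control cells among Krt6-high cells low in Krt1/10 (log2 1.21, 37.6 against 16.3 CPM), and lower among Krt6-high cells high in Krt1/10 (-0.93, 126 against 241 CPM) and among cells low on both splits (-0.97, 7.78 against 15.2 CPM). The first call was lost with thinned cells (0.97) and the last with a cut of 200 (-0.54) and without the top 1% of cells (-0.25). Ivl was lower in irradiated cells among Krt6-high cells low in Krt1/10 (-1.07) and higher among Krt6-low cells high in Krt1/10 (0.61), the first of which turned to 2.07 without the top 1% of cells. The second call was lost in 5 alternatives (0.36 to 0.56). Among Krt6-high cells, Csta1 was lower in Krt1/10-high than in Krt1/10-low cells in the irradiated library (-0.73, 245 against 405 CPM) and higher in the control library (0.80, 879 against 505 CPM). The irradiated side of that contrast held 29 and 55 cells.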

How the results depend on the processing

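Recomputing the 141 called values (136 with thinned cells) under each of 12 alternatives gave 1687 comparisons, of which 1588 kept the call, 91 lost it and 8 changed sign. The 1588 include 141 from the alternative without a minimum of UMIs. That alternative could not change a call, because every called value had already met the minimum. The calls for the members over all keratinocyte-like cells were kept in all 12 for the 5 lower genes, that alternative included. No paired analysis was possible because each group had 1 library. Counts of members changed as follows, with no share of all genes computed under any alternative, and the cause was not tested. A cut of 50 UMIs per 10000 gave 2 lower on the Krt6 split in each library. A cut of 200 gave 0 higher in irradiated Krt1/10-high cells and 0 lower on the control Krt6 split, and turned Sprr2h on the irradiated Krt1/10 split to -0.22 and Sprr1b on it among Krt6-high cells to -0.02. Thinning to 2000 UMIs gave 0 higher in Krt6-low and in Krt1/10-high cells and 0 lower on the control Krt6 split. Stricter cell filters gave 2 higher in Krt6-high, 5 lower in Krt6-low and 0 higher in Krt1/10-high cells. The keratin gate on every barcode gave 2 higher in Krt6-high cells and 0 lower on the control Krt6 split. A mean over cells gave 2 higher in Krt6-high, 6 lower in Krt6-low and 0 higher in Krt1/10-high cells, and 0 lower on the control Krt6 split. Without the top 1% of cells for each gene, 2 were higher in Krt6-high, 0 higher and 5 lower in Krt6-low, and 1 higher in Krt1/10-high cells. Without clusters with hair follicle markers, 2 were lower on the irradiated Krt6 split. With the 4 combinations weighted alike, chosen after seeing the data, 1 was higher and 3 were lower. Ivl on the Krt6 split among control Krt1/10-high cells turned to 0.66 with thinned cells and 0.25 as a mean over cells. Without the top 1% of cells, Ivl turned to 0.20 (irradiated over control, Krt6-high), 2.07 (Krt6-high, Krt1/10-low) and -0.06 (control Krt6 split among Krt1/10-low), and Flg to 0.93 (irradiated Krt6 split among Krt1/10-low). Depth limits Ivl, Tgm1 and Sprr2h most, which had 635 to 3067 UMIs in a library.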
